A study of Homo sapiens with 9 samples.

Results

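Transcripts of 45 lysosomal genes were followed in MDA-MB-231 cells depleted of AHR, the gene of the aryl hydrocarbon receptor, a ligand-activated transcription factor. The genes were taken by symbol from a fixed list of lysosomal proteases, hydrolases, membrane proteins, proton pump subunits and transcription factors, and they are 45 of the 60649 genes in the count table. All 45 symbols were found. Each of the 45 also passed the filter on low counts.

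The study used MDA-MB-231, an established human cell line of triple-negative breast cancer, and deposited 9 RNA sequencing libraries in 3 groups of 3. Control cells carried the vector pLKO-GFP, and the other groups carried a short hairpin RNA against AHR, either shAHR#2 or shAHR#3 as the labels number them. All groups share the cell line, lentiviral delivery, puromycin selection and a treatment label of proliferation, and surviving cells were pooled rather than cloned. Nothing in the labels says that replicates were separate cultures, so p-values measure the spread between libraries, which may be technical.

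Lysosomes are acidic organelles in which proteases, glycosidases, sulfatases and lipases break down material delivered by endocytosis and autophagy. Their enzymes work at a low pH that a proton pump, the V-ATPase, maintains, and heavily glycosylated membrane proteins line the organelle. Many lysosomal genes carry an E-box in their promoters that TFEB and TFE3 bind, while AHR with its partner ARNT binds a different short core.

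Promoter stretches are shown for genes of the list that hold the E-box core and come from different functional classes, because the genes behind them moved in different directions. All are from RefSeq windows on GRCh38.p14, written 5′ to 3′ along the gene's own strand, and the capitals mark CACGTG, which reads alike on both strands. The GAA stretch lies at chr17:80101481-80101580 (plus strand), CTSD at chr11:1763928-1764027 (minus), LAMP1 at chr13:113297029-113297238 (plus), CTSA at chr20:45891265-45891334 (plus), NEU1 at chr6:31862892-31862991 (minus), CTSF at chr11:66568607-66568756 (minus) and MCOLN1 at chr19:7522554-7522623 (plus). Each lies upstream of the annotated RefSeq start of its gene.
GAA: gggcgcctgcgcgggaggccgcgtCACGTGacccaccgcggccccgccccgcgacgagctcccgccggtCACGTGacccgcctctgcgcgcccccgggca
CTSD: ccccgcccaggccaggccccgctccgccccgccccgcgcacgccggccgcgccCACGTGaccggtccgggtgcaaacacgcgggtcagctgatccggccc
LAMP1: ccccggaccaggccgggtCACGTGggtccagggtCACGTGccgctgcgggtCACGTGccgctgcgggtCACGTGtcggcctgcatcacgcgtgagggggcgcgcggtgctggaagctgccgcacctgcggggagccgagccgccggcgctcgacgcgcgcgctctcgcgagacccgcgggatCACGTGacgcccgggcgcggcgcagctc
CTSA: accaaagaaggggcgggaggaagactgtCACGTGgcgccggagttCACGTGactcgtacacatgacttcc
NEU1: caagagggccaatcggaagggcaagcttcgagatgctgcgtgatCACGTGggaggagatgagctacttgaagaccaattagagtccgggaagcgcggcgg
CTSF: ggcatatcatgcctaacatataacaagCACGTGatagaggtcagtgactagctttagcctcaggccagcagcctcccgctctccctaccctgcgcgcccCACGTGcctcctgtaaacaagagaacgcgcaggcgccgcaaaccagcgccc
MCOLN1: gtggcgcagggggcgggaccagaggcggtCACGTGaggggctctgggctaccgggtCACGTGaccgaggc

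The windows ran from 250 bases before to 50 bases after the annotated start, and 31 of the 45 genes matched one. No window was matched for LGMN, CTSB, CTSK, CTSO, CTSS, HEXA, MANBA, NAGLU, ARSA, PSAP, ASAH1, LAMP2, ATP6V1A or ATP6V1H. The promoters of those genes were not searched. CACGTG was present in 9 of the 31 matched windows (29.0%) and in 1999 of 27056 windows of all genes (7.39%). The extended form TCACGTG, which contains CACGTG and was searched on both strands, was present in 8 of 31 (25.8%) and in 1025 of all windows (3.79%). The core bound by AHR with ARNT, searched as TNGCGTG on both strands, was present in 3 of 31 (9.68%), namely CTSA, CTSF and GUSB, and in 1487 of all windows (5.50%). The 9 genes with CACGTG were ATP6V0D1, CD63, CTSA, CTSD, CTSF, GAA, LAMP1, MCOLN1 and NEU1. LAMP1, a major glycoprotein of the lysosomal membrane, held 6 copies, of which 5 are in the printed stretch. A match is a description of letters in a window and not a measured binding site.

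The targeted gene was lower in every library that carried a hairpin. In CPM (counts divided by a library total scaled by trimmed mean normalization, on a common scale), AHR measured 114, 118 and 121 with pLKO-GFP, 42.5, 40.4 and 41.9 with shAHR#2 and 46.3, 52.1 and 44.5 with shAHR#3. This left 35.3% ± 0.912 of the control level with shAHR#2 and 40.5% ± 3.39 with shAHR#3 (SD, n = 3). Total counts per library ranged from 15991396 to 20374460 over the 9 libraries. Of 60649 genes, 14274 entered the quasi-likelihood test of edgeR, and "adjusted p" below means Benjamini-Hochberg adjustment over all of them. Genes expressed in MDA-MB-231 such as VIM and CD44 were abundant. Of 2 receptors that triple-negative lines lack, PGR had no count in any library and ESR1 had 0 to 4. Among 10 markers of macrophages and leukocytes, cells rich in lysosomes, CD163 and TYROBP had no count in any library and ITGAM, AIF1 and FCER1G had 0 to 3. PTPRC had 1, 4 and 2 counts with pLKO-GFP, 33, 23 and 14 with shAHR#2 and 16, 14 and 30 with shAHR#3 (log2 fold changes of 3.45, adjusted p = 2.63e-07, and 2.98, adjusted p = 1.05e-05). LYZ, the gene of lysozyme, rose by 2.46 (adjusted p = 2.75e-09) and 1.67 (adjusted p = 2.43e-05) from 8 to 13 counts a control library. CD14 fell by 1.40 (adjusted p = 0.00348) and CSF1R by 0.78 (adjusted p = 0.00316) with shAHR#2 and neither passed with shAHR#3. MRC1, which was too low to test, had 5 or 6 counts in each control library and 0 with shAHR#2. The 10 summed to between 4.29 and 5.67 CPM with pLKO-GFP, 5.76 and 7.45 with shAHR#2, and 6.44 and 7.00 with shAHR#3. Their part in the results was not tested.

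Lysosomal transcripts were abundant in the control cells and their summed level was higher with each hairpin. The size of this rise depended on CTSD and on the scaling. The 45 genes summed to 4644, 4726 and 4711 CPM with pLKO-GFP, 5103, 5194 and 5039 with shAHR#2 and 5074, 5129 and 5277 with shAHR#3. No hairpin library fell within the control range. Without CTSD, the aspartic protease cathepsin D, the sums averaged 4048 CPM with pLKO-GFP, 4346 with shAHR#2 and 4222 with shAHR#3. With raw library totals in place of the scaled ones, the 45 genes averaged 4793, 4986 and 5168 CPM, so the rise was smaller with each hairpin. With raw totals and without CTSD, the sums were 4083, 4184 and 4134 CPM with pLKO-GFP. They were then 4247, 4274 and 4194 with shAHR#2, which lay above the control. With shAHR#3 they were 4167, 4217 and 4302, which overlapped the control. The 14 proteases among the 45 genes summed to 1483, 1504 and 1528 CPM with pLKO-GFP, 1621, 1660 and 1562 with shAHR#2 and 1697, 1720 and 1848 with shAHR#3. Without CTSD, the other 13 proteases summed to 852, 854 and 872 CPM with pLKO-GFP, 871, 856 and 818 with shAHR#2 and 790, 812 and 851 with shAHR#3, so that shAHR#2 overlapped the control and shAHR#3 lay below it. With raw library totals, shAHR#2 lay below the control too, at 850, 833 and 799 against 867, 876 and 889 CPM with pLKO-GFP. The 12 glycosidases and sulfatases summed to between 351 and 353 CPM with pLKO-GFP, 357 and 372 with shAHR#2 and 353 and 361 with shAHR#3, so that shAHR#3 overlapped the control and shAHR#2 lay above it. With raw library totals, shAHR#2 did not lie above, at 351, 362 and 349 against 359, 361 and 360 CPM with pLKO-GFP. The median average log2 CPM was 5.92 for the 45 genes and 4.46 for all genes tested. Because bulk RNA was measured, a change in the RNA content per cell and a change in the make-up of the pooled cells cannot be told apart.

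On a scale per length of all exons of a gene merged (TPM, with an equal total in each library), 5 genes led in the control cells. Their order depends on the length chosen. The longest transcript of CD63 has 1233 bases against 2422 merged, and that of PSAP 2748 against 3115. With the longest transcript as length, CD63 would stand above PSAP, and LAMP1 would leave the first 5. PSAP, the precursor of the saposins that help degrade sphingolipids, was highest at 806 ± 27.3 TPM (SD, n = 3). CD63, a tetraspanin of late endosomes and lysosomes, followed at 561 ± 22.1 TPM, and the aspartic protease CTSD at 418 ± 16.6 TPM. NPC2, which carries cholesterol in the lysosomal lumen, reached 210.1 ± 11.0 TPM and LAMP1 134 ± 5.86 TPM. These 5 levels did not overlap within 1 SD, whereas further down TFE3 at 64.5 ± 3.69 TPM and GLB1 at 64.4 ± 3.25 TPM differed by less than their SDs. The lowest of the 45 was CTSO at 0.866 ± 0.208 TPM. With shAHR#3 and the merged exon length, CTSD reached 611 ± 35.6 TPM and stood above the 594 ± 11.4 TPM of CD63, within 1 SD of it.

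**Figure D1:**
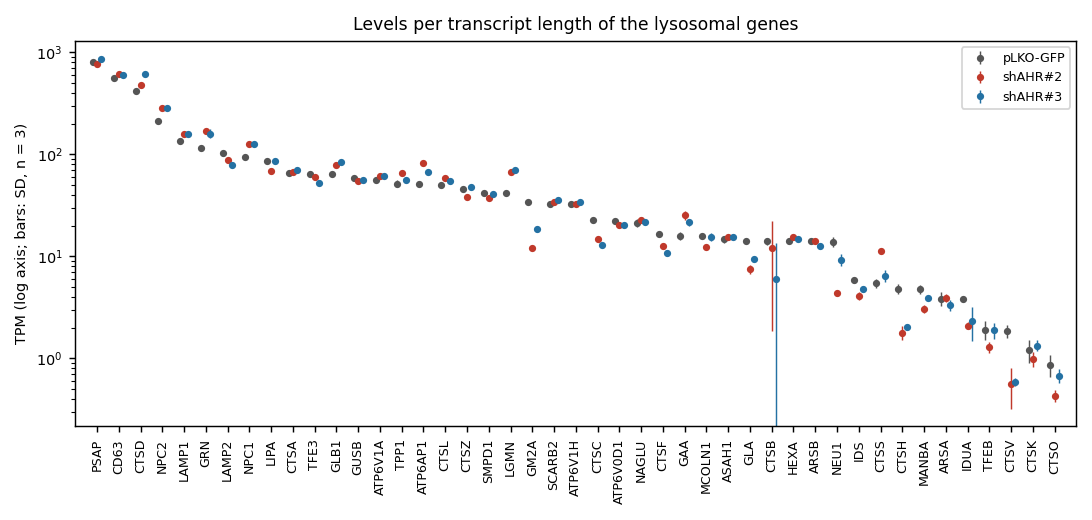
Mean level per length of merged exons (TPM, log axis) of each of the 45 lysosomal genes in pLKO-GFP, shAHR#2 and shAHR#3 cells, ordered by the control level, with bars for the SD of 3 libraries. PSAP, CD63 and CTSD lead in the control cells at 806, 561 and 418 TPM, and CTSB has by far the longest bars.

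With shAHR#2, the lysosomal genes moved in both directions in nearly equal number. Of the 45, 18 were higher and 16 lower at an adjusted p under 0.05 and 11 did not pass, against a background of 32.6% of all tested genes higher and 33.2% lower. The shares of the 45 were 40.0% and 35.6%, near those of all genes. Requiring an absolute log2 fold change of at least 0.5 as well left 5 higher (11.1%, background 13.6%) and 10 lower (22.2%, background 16.1%). The median log2 fold change was -0.02 over the 45 genes and -0.003 over all tested genes.

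With shAHR#3, compared with the same control libraries, 16 of the 45 were higher and 15 lower and 14 did not pass. The background was 26.9% higher and 27.5% lower, and the shares of the 45 were 35.6% and 33.3%. With the added size of 0.5, 2 were higher (4.44%, background 9.69%) and 9 lower (20.0%, background 7.78%). Those 9 include CTSB, which varied widely between libraries and which DESeq2 did not call (adjusted p = 0.346). The median log2 fold change of the 45 genes was 0.01. Leaving out shAHR#3 replicate 3 made the 2 higher 1. Comparing the constructs directly, 10 were higher (6 without shAHR#2 replicate 1) and 15 lower with shAHR#3 than with shAHR#2, where the background was 21.9% higher and 20.4% lower. At the added size these numbers were 3 higher and 2 lower, against backgrounds of 6.96% and 4.41%, and the 2 lower became 1 without pLKO-GFP replicate 3 or replicate 1 or 2 of either hairpin.

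**Figure D2:**
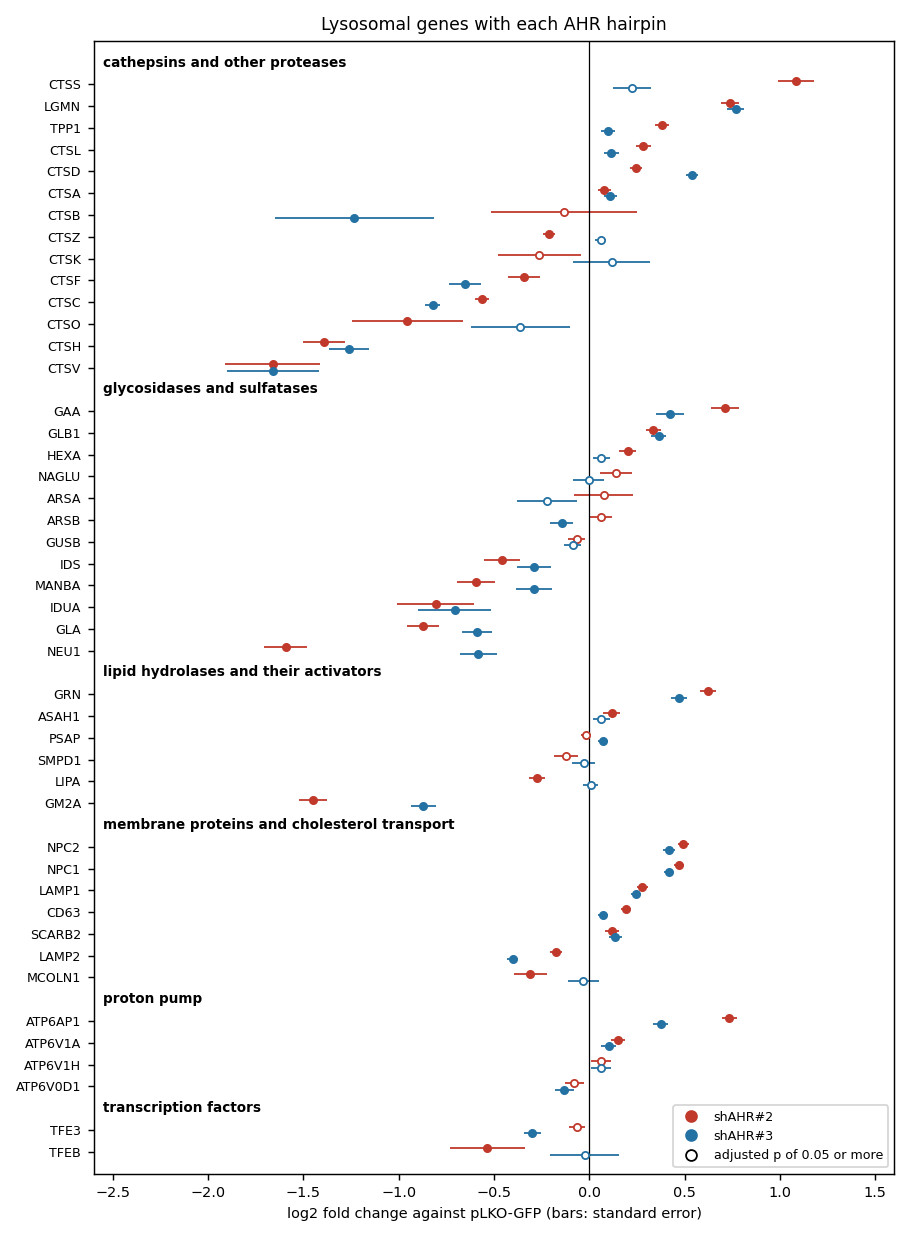
Log2 fold change against pLKO-GFP of the 45 lysosomal genes, grouped by role, with shAHR#2 in red, shAHR#3 in blue, bars for the standard error and open circles for an adjusted p of 0.05 or more. Values range from -1.66 for CTSV with either hairpin to 1.08 for CTSS with shAHR#2, and LGMN lies at 0.74 and 0.77.

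Among the 14 cathepsins and other proteases, legumain and cathepsin D rose while cathepsins C, F, H and V fell. With shAHR#2, 6 of the 14 were higher and 6 lower, and with shAHR#3 5 were higher and 5 lower (3 higher without pLKO-GFP replicate 1). In shares this was 42.9% higher and 42.9% lower with shAHR#2, against 32.6% and 33.2% of all tested genes, and 35.7% and 35.7% with shAHR#3, against 26.9% and 27.5%, and the medians on the log2 scale were -0.17 and 0.08. LGMN (chromosome 14, 92703807 to 92748679, minus strand, GRCh38), the asparaginyl endopeptidase legumain that also matures other cathepsins, measured 42.7, 42.0 and 45.7 CPM with pLKO-GFP, 73.6, 72.7 and 71.3 with shAHR#2 and 72.9, 76.6 and 72.6 with shAHR#3. Every hairpin library exceeded every control library and the hairpin groups overlapped. LGMN had a log2 fold change of 0.74 (SE 0.05, adjusted p = 9.78e-17) with shAHR#2 and 0.77 (SE 0.05, adjusted p = 4.35e-17) with shAHR#3. Between the hairpins LGMN differed by 0.03 with a 95% interval from -0.06 to 0.11. CTSD (chromosome 11, 1752752 to 1764573, minus strand), the main lysosomal aspartic protease, measured 631, 651 and 656 CPM with pLKO-GFP, 750.3, 805 and 744 with shAHR#2 and 907, 908 and 997 with shAHR#3. Here the groups did not overlap, with shAHR#3 highest. For CTSD, the log2 fold change was 0.25 (SE 0.03, adjusted p = 1.22e-08) with shAHR#2 and 0.54 (SE 0.03, adjusted p = 2.72e-17) with shAHR#3. The hairpins differed directly by 0.29 (SE 0.03, adjusted p = 6.02e-10).

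The falling cathepsins included exopeptidases and a close relative of cathepsin L. CTSC, the dipeptidyl peptidase that activates several serine proteases, measured 154, 153 and 151 CPM with pLKO-GFP, 97.7, 109 and 103 with shAHR#2 and 84.9, 90.5 and 83.4 with shAHR#3. All groups were separate, in descending order. The CTSC log2 difference from the control was -0.56 (SE 0.04, adjusted p = 9.81e-16) with shAHR#2 and -0.82 (SE 0.04, adjusted p = 3.13e-20) with shAHR#3. CTSH, an aminopeptidase, measured 15.8, 18.2 and 20.0 CPM with pLKO-GFP, 6.76, 7.96 and 5.95 with shAHR#2 and 8.02, 7.47 and 7.13 with shAHR#3. Both hairpin groups lay below the control and overlapped each other. For CTSH, the log2 fold change was -1.39 (SE 0.11, adjusted p = 6.71e-14) with shAHR#2 and -1.26 (SE 0.10, adjusted p = 5.13e-13) with shAHR#3. CTSV, the cathepsin L relative, was near the low end of the list at 4.35, 3.15 and 3.60 CPM with pLKO-GFP, 1.18, 0.642 and 1.64 with shAHR#2 and 1.13, 1.28 and 1.07 with shAHR#3. Again no hairpin library reached the control range. For CTSV, the log2 fold change was -1.66 (SE 0.25, adjusted p = 3.45e-07) with shAHR#2 and -1.66 (SE 0.24, adjusted p = 2.59e-07) with shAHR#3. CTSF, a cysteine protease, measured 19.0, 18.7 and 20.0 CPM with pLKO-GFP, 15.4, 14.2 and 15.8 with shAHR#2 and 12.7, 12.8 and 11.3 with shAHR#3, with all groups separate. Its log2 fold change was -0.34 (adjusted p = 0.000433) with shAHR#2 and -0.65 (adjusted p = 2e-08) with shAHR#3.

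Cathepsin S rose past the threshold with shAHR#2 and did not pass with shAHR#3. CTSS, which cleaves the invariant chain during antigen presentation, measured 9.26, 9.84 and 11.4 CPM with pLKO-GFP, 21.0, 22.6 and 21.4 with shAHR#2 and 11.5, 13.7 and 10.6 with shAHR#3. The shAHR#2 libraries stood above both other groups, which overlapped. CTSS had a log2 fold change of 1.08 (SE 0.10, adjusted p = 1.38e-12) with shAHR#2 and 0.22 (SE 0.10, adjusted p = 0.0615) with shAHR#3. The direct difference of shAHR#3 from shAHR#2 was -0.86 (SE 0.09, adjusted p = 6.82e-10). Without pLKO-GFP replicate 3 the shAHR#3 value passed, at a log2 fold change of 0.32 (adjusted p = 0.0201), and without shAHR#3 replicate 3 it was 0.30 (adjusted p = 0.0161).

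Cathepsin B varied widely within the hairpin groups. CTSB (chromosome 8, 11842524 to 11869533, minus strand), an abundant cysteine protease in many cells, measured 43.1, 35.4 and 42.2 CPM with pLKO-GFP, 66.1, 35.4 and 5.63 with shAHR#2 and 4.53, 4.40 and 41.5 with shAHR#3. A single shAHR#2 library and a pair of shAHR#3 libraries were far below all others, at 89, 88 and 86 raw counts, against 552 to 1232 in the remaining 6 libraries. Means were 40.2 ± 4.24 CPM with pLKO-GFP, 35.7 ± 30.2 with shAHR#2 and 16.8 ± 21.4 with shAHR#3 (SD, n = 3). The largest within-group SD of log2 CPM for CTSB, 1.73, ranked 1 of 10276 genes that averaged 100 or more counts, whose median was 0.0869. edgeR gave a log2 fold change of -0.13 (SE 0.38, adjusted p = 0.776) with shAHR#2 and -1.23 (SE 0.42, adjusted p = 0.012) with shAHR#3. DESeq2 gave the latter as -1.26 and did not call it (adjusted p = 0.346). For CTSB with shAHR#3, edgeR gave -0.79 (adjusted p = 0.106) without shAHR#3 replicate 1, -0.78 (adjusted p = 0.0830) without replicate 2 and -3.17 (adjusted p = 9.94e-09) without replicate 3. The shAHR#2 value was -0.97 (adjusted p = 0.0519) without shAHR#2 replicate 1 and 0.36 (adjusted p = 0.325) without shAHR#2 replicate 3. FDFT1, the neighbouring gene on the same chromosome, measured 32.7, 27.1 and 32.0 CPM with pLKO-GFP, 54.3, 59.8 and 34.7 with shAHR#2 and 41.3, 37.4 and 49.5 with shAHR#3. Within each hairpin group its lowest values fell in the same 3 libraries in which CTSB was low, and the part of this was not tested. With CTSB left out, 14 members rather than 15 were lower with shAHR#3.

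**Figure D3:**
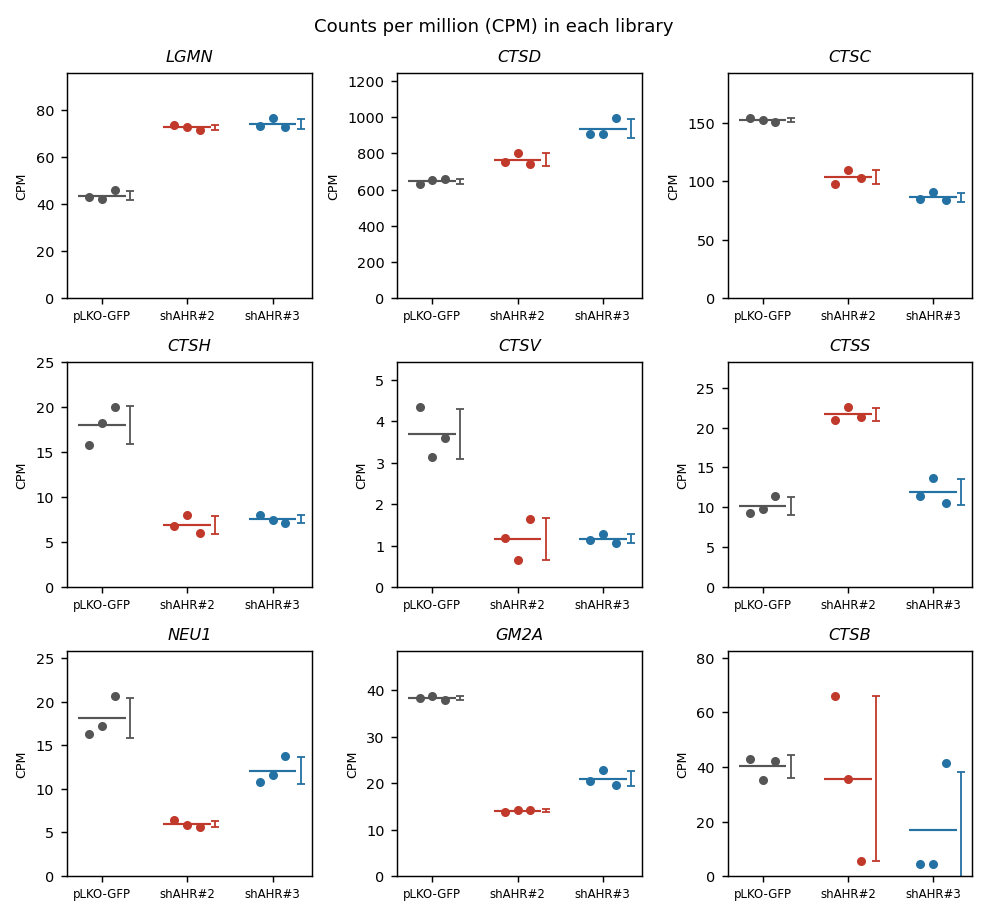
Level in CPM in each library for 9 lysosomal genes, with a line at the mean of each group and bars for the SD of 3 libraries. LGMN and CTSD lie above the control in every hairpin library, CTSC, CTSH, CTSV, NEU1 and GM2A lie below it, and CTSB spans from 4.40 to 66.1 CPM.

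The remaining proteases moved by smaller amounts or were measured with few counts. TPP1, a tripeptidyl peptidase, averaged 91.0 ± 3.93 CPM with pLKO-GFP, 119 ± 2.45 with shAHR#2 and 97.6 ± 0.170 with shAHR#3 (SD, n = 3), with adjusted p = 1.91e-11 and 0.0229 for rises of 0.38 and 0.10 on the log2 scale. CTSL, a major endopeptidase, averaged 83.3 ± 4.57 CPM with pLKO-GFP, 101 ± 1.59 with shAHR#2 and 90.1 ± 0.829 with shAHR#3, rising by 0.28 and 0.11. CTSA, the protective protein that stabilizes the sialidase NEU1, averaged 152 ± 6.39 CPM with pLKO-GFP, 161 ± 2.38 with shAHR#2 and 164 ± 6.76 with shAHR#3, and its rises were 0.08 (adjusted p = 0.0488) and 0.11 (adjusted p = 0.00643). For CTSA the libraries of the groups overlapped. With shAHR#2 its call was lost by DESeq2 (adjusted p = 0.0664) or without a filter on low counts (adjusted p = 0.0971). That call was also lost without pLKO-GFP replicate 1 or 2 or shAHR#2 replicate 2 or 3 (adjusted p from 0.0805 to 0.227). With shAHR#3 the CTSA call was lost without pLKO-GFP replicate 1 or shAHR#3 replicate 3 (adjusted p = 0.0577 and 0.0597). The shAHR#3 call of TPP1 was lost by DESeq2 (adjusted p = 0.0533) or without pLKO-GFP replicate 1 or 3 (adjusted p = 0.103 and 0.116), and that of CTSL without pLKO-GFP replicate 3 (adjusted p = 0.169). CTSZ, a carboxypeptidase, averaged 241 ± 5.25 CPM with pLKO-GFP, 208 ± 3.22 with shAHR#2 and 251 ± 8.20 with shAHR#3, falling by 0.21 with shAHR#2, while the value with shAHR#3 was 0.06 (SE 0.03, adjusted p = 0.0862) and passed without shAHR#3 replicate 1 (adjusted p = 0.0281). CTSO averaged 1.87 ± 0.493 CPM with pLKO-GFP, 0.953 ± 0.125 with shAHR#2 and 1.45 ± 0.221 with shAHR#3, with a log2 fold change of -0.95 (SE 0.29, adjusted p = 0.00426) with shAHR#2 and -0.36 (SE 0.26, adjusted p = 0.243) with shAHR#3. CTSK, the collagen-degrading protease of osteoclasts, averaged 2.81 ± 0.776 CPM with pLKO-GFP, 2.33 ± 0.372 with shAHR#2 and 3.04 ± 0.384 with shAHR#3 and did not pass in any comparison, the values being -0.26 and 0.12.

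Among the 12 glycosidases and sulfatases, NEU1, GLA, IDUA, IDS and MANBA fell and GAA and GLB1 rose. With shAHR#2, 3 were higher and 5 lower, and with shAHR#3 2 were higher and 6 lower. These shares were 25.0% higher and 41.7% lower with shAHR#2, against 32.6% and 33.2% of all tested genes, and 16.7% and 50% with shAHR#3, against 26.9% and 27.5%, and the list had median log2 fold changes of -0.0039 and -0.18. NEU1 (chromosome 6, 31857659 to 31862905, minus strand), the sialidase that removes terminal sialic acids, measured 16.3, 17.2 and 20.7 CPM with pLKO-GFP, 6.38, 5.91 and 5.63 with shAHR#2 and 10.8, 11.6 and 13.8 with shAHR#3. The groups did not overlap, and shAHR#2 was lowest. The NEU1 log2 difference from the control was -1.59 (SE 0.11, adjusted p = 3.9e-15) with shAHR#2 and -0.58 (SE 0.10, adjusted p = 3.15e-06) with shAHR#3. Directly, shAHR#3 exceeded shAHR#2 by 1.01 (SE 0.12, adjusted p = 6.42e-09). GLA, the alpha-galactosidase that degrades globotriaosylceramide, measured 25.2, 22.8 and 23.1 CPM with pLKO-GFP, 11.7, 14.3 and 12.9 with shAHR#2 and 15.2, 16.4 and 15.7 with shAHR#3. Again all groups were separate. For GLA, the log2 fold change was -0.87 (SE 0.08, adjusted p = 1.27e-11) with shAHR#2 and -0.59 (SE 0.08, adjusted p = 5.36e-08) with shAHR#3. IDUA, which removes iduronic acid from dermatan and heparan sulfate, measured 4.35, 3.99 and 4.25 CPM with pLKO-GFP, 2.57, 2.31 and 2.28 with shAHR#2 and 2.47, 1.69 and 3.52 with shAHR#3. The hairpin libraries were below the control, although 1 shAHR#3 library came close. IDUA had a log2 fold change of -0.81 (SE 0.20, adjusted p = 0.000674) with shAHR#2 and -0.71 (SE 0.19, adjusted p = 0.00208) with shAHR#3.

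GAA, the glucosidase that degrades glycogen in lysosomes and whose promoter stretch holds 2 copies of CACGTG, measured 22.2, 24.2 and 21.8 CPM with pLKO-GFP, 36.6, 41.0 and 34.2 with shAHR#2 and 32.0, 27.9 and 31.6 with shAHR#3. Both hairpin groups were above the control, and shAHR#2 was above shAHR#3. The GAA log2 difference from the control was 0.71 (SE 0.07, adjusted p = 4.79e-11) with shAHR#2 and 0.42 (SE 0.07, adjusted p = 4.53e-06) with shAHR#3. GLB1, the beta-galactosidase, averaged 75.6 ± 1.55 CPM with pLKO-GFP, 95.4 ± 2.11 with shAHR#2 and 97.2 ± 1.84 with shAHR#3 (SD, n = 3), a rise of 0.34 and 0.36 on the log2 scale. HEXA, the alpha subunit of beta-hexosaminidase, rose by 0.20 with shAHR#2 (adjusted p = 0.000127) and had a log2 value of 0.06 (SE 0.04, adjusted p = 0.225) with shAHR#3. IDS, the sulfatase that acts before IDUA, fell by 0.46 and 0.29 on the log2 scale, and MANBA, a mannosidase, by 0.59 and 0.29. ARSB, a sulfatase of dermatan sulfate, had a log2 value of 0.06 (SE 0.06, adjusted p = 0.408) with shAHR#2 and fell by 0.14 with shAHR#3 (adjusted p = 0.0429). That call of ARSB was lost by DESeq2 (adjusted p = 0.0813), without a filter on low counts (adjusted p = 0.0720) and with only the groups compared (adjusted p = 0.0636). The ARSB call was also lost without any single library other than pLKO-GFP replicate 1 and shAHR#3 replicate 2 (adjusted p from 0.055 to 0.207). The MANBA call with shAHR#3 was lost without pLKO-GFP replicate 1 (adjusted p = 0.111). GUSB, NAGLU and ARSA, which act on glucuronides, heparan sulfate and sulfatide, passed neither comparison with the control, at log2 values between -0.22 and 0.14. GUSB passed with shAHR#3 when shAHR#3 replicate 2 was left out (adjusted p = 0.0496).

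Of the 6 lipid hydrolases and their activators, GRN rose and GM2A fell by the largest amounts. With shAHR#2, 2 were higher and 2 lower, and with shAHR#3 2 were higher and 1 lower. As shares, 33.3% were higher and 33.3% lower with shAHR#2, against 32.6% and 33.2% of all tested genes, and 33.3% and 16.7% with shAHR#3, against 26.9% and 27.5%, with median log2 fold changes of -0.07 and 0.04. A single gene was higher with shAHR#2 without pLKO-GFP replicate 1 or 3, and with shAHR#3 without pLKO-GFP replicate 1 or shAHR#3 replicate 3. GM2A (chromosome 5, 151212150 to 151270440, plus strand), the activator that presents ganglioside GM2 to beta-hexosaminidase, measured 38.3, 38.8 and 37.9 CPM with pLKO-GFP, 13.7, 14.2 and 14.2 with shAHR#2 and 20.5, 22.8 and 19.6 with shAHR#3. No libraries of different groups overlapped, and shAHR#2 was lowest. For GM2A, the log2 fold change was -1.45 (SE 0.07, adjusted p = 1.25e-19) with shAHR#2 and -0.87 (SE 0.07, adjusted p = 5.8e-14) with shAHR#3, and shAHR#3 exceeded shAHR#2 by 0.58 (SE 0.08, adjusted p = 9.97e-08). The 656 tested genes of chromosome 5, which holds GM2A, had a median log2 fold change of -0.48 with shAHR#2 and -0.26 with shAHR#3, and the part of this in the GM2A result was not tested. GRN, the gene of progranulin, a secreted protein that reaches lysosomes, measured 109.9, 107 and 112 CPM with pLKO-GFP, 172, 169.7 and 163 with shAHR#2 and 142, 145 and 168 with shAHR#3. Every hairpin library exceeded the control. GRN had a log2 fold change of 0.62 (SE 0.04, adjusted p = 1.41e-15) with shAHR#2 and 0.47 (SE 0.04, adjusted p = 5.97e-12) with shAHR#3.

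PSAP, the highest of the 45 per length of merged exons in control cells, stayed within a narrow range at 672, 683 and 685 CPM with pLKO-GFP, 664, 689 and 663 with shAHR#2 and 703, 708 and 733 with shAHR#3. The shAHR#2 libraries overlapped the control and the shAHR#3 libraries lay just above it. The PSAP log2 difference from the control was -0.02 (SE 0.03, adjusted p = 0.585) with shAHR#2, with a 95% interval from -0.07 to 0.03, and 0.07 (SE 0.03, adjusted p = 0.0151) with shAHR#3. The shAHR#3 value of PSAP lost the threshold without pLKO-GFP replicate 1 (adjusted p = 0.0646) or shAHR#3 replicate 3 (adjusted p = 0.0732). LIPA, the acid lipase that frees cholesterol from its esters, averaged 114 ± 3.25 CPM with pLKO-GFP, 93.9 ± 5.54 with shAHR#2 and 114 ± 5.24 with shAHR#3 (SD, n = 3). It fell by 0.27 with shAHR#2 (adjusted p = 3.4e-07) and had a log2 value of 0.01 (SE 0.04, adjusted p = 0.886) with shAHR#3. ASAH1, the acid ceramidase, rose by 0.12 with shAHR#2 (adjusted p = 0.0232) and had a log2 value of 0.06 (SE 0.04, adjusted p = 0.236) with shAHR#3. The ASAH1 call was lost without pLKO-GFP replicate 1 or 3 (adjusted p = 0.159 and 0.0519) or without a filter on low counts (adjusted p = 0.0558). SMPD1, the acid sphingomyelinase, passed neither comparison with the control, at -0.12 and -0.03.

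Of the 7 membrane and cholesterol transport genes, 5 were higher and 2 lower with shAHR#2 and 5 were higher and 1 lower with shAHR#3. As shares, 71.4% were higher and 28.6% lower with shAHR#2, against 32.6% and 33.2% of all tested genes, and 71.4% and 14.3% with shAHR#3, against 26.9% and 27.5%, with median log2 fold changes of 0.19 and 0.14. None reached an absolute log2 fold change of 0.5 in either comparison. NPC2 measured 143, 151 and 147 CPM with pLKO-GFP, 207, 209.5 and 205 with shAHR#2 and 196, 195 and 198 with shAHR#3. Both hairpin groups stood clear of the control. For NPC2, the log2 fold change was 0.49 (SE 0.03, adjusted p = 5.86e-17) with shAHR#2 and 0.42 (SE 0.03, adjusted p = 1.23e-14) with shAHR#3. NPC1, the membrane transporter to which NPC2 passes cholesterol, measured 249, 251 and 247 CPM with pLKO-GFP, 337, 352 and 347 with shAHR#2 and 328, 334 and 338 with shAHR#3. Here too every hairpin library exceeded the control. NPC1 had a log2 fold change of 0.47 (SE 0.03, adjusted p = 9.78e-18) with shAHR#2 and 0.42 (SE 0.03, adjusted p = 5.18e-16) with shAHR#3. LAMP1 measured 209, 212 and 206 CPM with pLKO-GFP, 257, 248 and 255 with shAHR#2 and 244, 248 and 249 with shAHR#3. The hairpin groups overlapped each other and not the control. The LAMP1 log2 difference from the control was 0.28 (SE 0.03, adjusted p = 6.05e-11) with shAHR#2 and 0.24 (SE 0.03, adjusted p = 1.86e-09) with shAHR#3.

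LAMP2, the other major membrane glycoprotein, moved opposite to LAMP1, at 292, 304 and 287 CPM with pLKO-GFP, 264, 257 and 261 with shAHR#2 and 231, 225 and 211 with shAHR#3. All groups were separate, with shAHR#3 lowest. For LAMP2, the log2 fold change was -0.17 (SE 0.03, adjusted p = 6.03e-06) with shAHR#2 and -0.40 (SE 0.03, adjusted p = 6.03e-14) with shAHR#3. LAMP2 lies on chromosome X, whose 447 tested genes had medians of -0.24 and -0.32, and the part of this was not tested. CD63 measured 364, 372 and 369 CPM with pLKO-GFP, 412, 417 and 433 with shAHR#2 and 379, 394 and 389 with shAHR#3. The groups did not overlap and shAHR#2 was highest. CD63 had a log2 fold change of 0.19 (SE 0.03, adjusted p = 8.58e-08) with shAHR#2 and 0.07 (SE 0.03, adjusted p = 0.019) with shAHR#3. The shAHR#3 value of CD63 lost the threshold without pLKO-GFP replicate 1 (adjusted p = 0.0742) or shAHR#3 replicate 2 (adjusted p = 0.0818). SCARB2, the receptor that carries glucocerebrosidase to lysosomes, averaged 171 ± 8.23 CPM with pLKO-GFP, 186 ± 4.62 with shAHR#2 and 188 ± 9.92 with shAHR#3 (SD, n = 3), rising by 0.12 and 0.14 on the log2 scale. The shAHR#2 call of SCARB2 was lost without pLKO-GFP replicate 1 (adjusted p = 0.0535). MCOLN1, a calcium channel of the lysosome, averaged 17.0 ± 0.634 CPM with pLKO-GFP, 13.7 ± 0.721 with shAHR#2 and 16.6 ± 1.40 with shAHR#3 and fell by 0.31 with shAHR#2 (adjusted p = 0.00212), and its value with shAHR#3 was -0.03 (SE 0.08, adjusted p = 0.767).

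Of the 4 proton pump genes, 2 were higher and 0 lower with shAHR#2, and with shAHR#3 2 were higher and 1 lower. In shares this was 50% higher and 0% lower with shAHR#2, against 32.6% and 33.2% of all tested genes, and 50% and 25.0% with shAHR#3, against 26.9% and 27.5%, and the medians on the log2 scale were 0.11 and 0.08. The shAHR#3 counts fell to 1 higher and 0 lower without pLKO-GFP replicate 2 or shAHR#3 replicate 1, and to 1 higher without shAHR#3 replicate 2. ATP6AP1, an accessory subunit needed to assemble the pump, measured 76.6, 79.7 and 80.1 CPM with pLKO-GFP, 127, 137 and 129.9 with shAHR#2 and 104, 96.8 and 106 with shAHR#3. All 3 groups were separate, and shAHR#2 was highest. The ATP6AP1 log2 difference from the control was 0.73 (SE 0.04, adjusted p = 1.2e-18) with shAHR#2 and 0.37 (SE 0.04, adjusted p = 3.41e-10) with shAHR#3. ATP6AP1, GLA, IDS and TFE3 also lie on chromosome X. Chromosome 4 (IDUA, SCARB2, MANBA and CTSO) had medians of -0.30 with shAHR#2 and -0.23 with shAHR#3. Those of chromosome 10 (PSAP and LIPA) were -0.32 and -0.15. For chromosome 20 (CTSA and CTSZ) they were -0.31 and -0.14, and for chromosome 12 (CD63) 0.22 and 0.17. Chromosome 14 (LGMN and NPC2) had medians of 0.23 and 0.15. The part of these shifts was not tested. ATP6V1A, the catalytic subunit, rose by 0.15 (adjusted p = 0.000662) and 0.10 (adjusted p = 0.0214) on the log2 scale. ATP6V0D1, a subunit of the membrane sector, had a log2 value of -0.08 (SE 0.05, adjusted p = 0.164) with shAHR#2 and fell by 0.13 with shAHR#3 (adjusted p = 0.0232). With shAHR#3, DESeq2 called neither ATP6V1A (adjusted p = 0.0523) nor ATP6V0D1 (adjusted p = 0.0516). Without a filter on low counts, edgeR did not call ATP6V0D1 (adjusted p = 0.0523). Moreover, edgeR called neither gene without pLKO-GFP replicate 2 or shAHR#3 replicate 1, nor ATP6V1A without shAHR#3 replicate 2 (adjusted p from 0.0539 to 0.111). ATP6V1H, a regulatory subunit, did not pass in any comparison, at 0.06 and 0.06.

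Neither transcription factor was called higher than the control. TFEB, a regulator of lysosome and autophagy genes, was among the least abundant of the list at 2.77, 4.04 and 3.65 CPM with pLKO-GFP, 2.52, 2.63 and 2.09 with shAHR#2 and 3.50, 2.81 and 4.00 with shAHR#3. The shAHR#2 libraries lay below the other groups, which overlapped. For TFEB, the log2 fold change was -0.53 (SE 0.20, adjusted p = 0.018) with shAHR#2 and -0.03 (SE 0.18, adjusted p = 0.919) with shAHR#3. The shAHR#2 value lost the threshold without pLKO-GFP replicate 2 (-0.41, adjusted p = 0.104), without pLKO-GFP replicate 3 (-0.51, adjusted p = 0.0507) and without shAHR#2 replicate 3 (-0.44, adjusted p = 0.0791). TFE3, a related factor with much higher counts, measured 74.8, 75.1 and 70.6 CPM with pLKO-GFP, 67.4, 74.3 and 69.3 with shAHR#2 and 60.4, 58.5 and 60.2 with shAHR#3. The shAHR#3 libraries were below both other groups. TFE3 had a log2 fold change of -0.07 (SE 0.04, adjusted p = 0.192) with shAHR#2 and -0.30 (SE 0.04, adjusted p = 3e-07) with shAHR#3. Transcript levels do not show where in the cell these factors were, by which their activity is known to be set in large part.

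Genes with the E-box core were spread over both directions. CTSD, GAA, LAMP1 and CD63 were higher with each hairpin, NEU1 and CTSF were lower with each, and ATP6V0D1 and MCOLN1 passed in 1 comparison with the control, each as a fall. CTSA passed in both as a rise.

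Other genes of the lysosomal pathway, listed by role, were described in the same way, and paired values below are log2 fold changes with shAHR#2 and then with shAHR#3. Of 162 such genes in the table, 148 were tested, with 60 higher and 54 lower with shAHR#2 and 51 higher and 44 lower with shAHR#3. As shares, 40.5% were higher and 36.5% lower with shAHR#2, against 32.6% and 33.2% of all tested genes, and 34.5% and 29.7% with shAHR#3, against 26.9% and 27.5%, with median log2 fold changes of 0.0078 and 0.04. Among 33 other hydrolases tested, shAHR#2 libraries had 14 higher and 14 lower and shAHR#3 libraries 13 higher and 10 lower. These shares were 42.4% higher and 42.4% lower with shAHR#2, against 32.6% and 33.2% of all tested genes, and 39.4% and 30.3% with shAHR#3, against 26.9% and 27.5%, and the list had median log2 fold changes of 0.0068 and 0.05. ACP2, an acid phosphatase, averaged 27.6 ± 0.393 CPM with pLKO-GFP, 49.4 ± 3.70 with shAHR#2 and 44.5 ± 2.39 with shAHR#3 (SD, n = 3), log2 fold changes of 0.84 and 0.69. ARSG, a sulfatase, rose by 0.60 and 0.67. SIAE, an esterase of sialic acids, fell by 0.78 and 0.62, AGA, which cleaves glycoprotein remnants, by 0.76 and 0.52, and NAAA by 0.57 and 0.43.

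Among 34 other membrane proteins tested, shAHR#2 libraries had 16 higher and 11 lower and shAHR#3 libraries 16 higher and 8 lower. In shares this was 47.1% higher and 32.4% lower with shAHR#2, against 32.6% and 33.2% of all tested genes, and 47.1% and 23.5% with shAHR#3, against 26.9% and 27.5%, and the medians on the log2 scale were 0.14 and 0.14. LAPTM5, a membrane protein best known from blood cells, measured 96.6, 102 and 104 CPM with pLKO-GFP, 323, 324 and 313 with shAHR#2 and 245, 258 and 237 with shAHR#3. The groups were far apart, with log2 fold changes of 1.67 (SE 0.03, adjusted p = 4.43e-32) and 1.29 (SE 0.03, adjusted p = 5.55e-28). LAMP3 rose by 1.50 and 1.09 from a control mean of 1.12 CPM, and the nucleoside transporter SLC29A3 by 0.92 and 1.41. TMEM192 fell by 0.74 and 0.47, the potassium and proton channel TMEM175 by 0.54 and 0.40, and ABCA2 by 0.44 and 0.33. The TMEM175 call with shAHR#3 was lost without pLKO-GFP replicate 2 or shAHR#3 replicate 1 (adjusted p = 0.0661 and 0.114). Of the leukocyte markers, PTPRC and LYZ were also higher with each hairpin, while CD14 and CSF1R were lower and MRC1 had no count with shAHR#2. Their part in the LAPTM5 result was not tested.

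Of 15 other pump subunits tested, 9 were higher and 1 lower with shAHR#2, and 6 higher and 5 lower with shAHR#3. As shares, 60.0% were higher and 6.67% lower with shAHR#2, against 32.6% and 33.2% of all tested genes, and 40.0% and 33.3% with shAHR#3, against 26.9% and 27.5%, with median log2 fold changes of 0.17 and 0.02. Without replicate 1 of the hairpin concerned, 2 were lower with shAHR#2 and 3 with shAHR#3. The subunit that fell with shAHR#2 was ATP6V0E1 of the membrane sector, at 138, 148 and 145 CPM with pLKO-GFP, 36.1, 39.7 and 37.9 with shAHR#2 and 92.6, 85.1 and 88.5 with shAHR#3. Its groups did not overlap, with log2 fold changes of -1.92 (SE 0.04, adjusted p = 4.49e-30) and -0.69 (SE 0.04, adjusted p = 7.1e-18). ATP6V0E1 lies on chromosome 5, as does GM2A. ATP6V0A1 rose by 0.65 and 0.60, ATP6V1E1 by 0.25 and 0.24 and ATP6V0C, the proton-carrying ring subunit, by 0.32 and 0.27. For ATP6V0C, the call with shAHR#2 was lost without pLKO-GFP replicate 1 or shAHR#2 replicate 2 (adjusted p = 0.0598 and 0.0969) and that with shAHR#3 by DESeq2 (adjusted p = 0.0784) or without pLKO-GFP replicate 1 or shAHR#3 replicate 1 or 3 (adjusted p from 0.117 to 0.14).

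Genes that deliver enzymes to lysosomes numbered 29, of which 9 rose and 10 fell with shAHR#2 and 8 rose and 6 fell with shAHR#3. These shares were 31.0% higher and 34.5% lower with shAHR#2, against 32.6% and 33.2% of all tested genes, and 27.6% and 20.7% with shAHR#3, against 26.9% and 27.5%, and the list had median log2 fold changes of -0.0056 and 0.03. Both mannose 6-phosphate receptors rose, M6PR by 0.50 and 0.38 and IGF2R by 0.32 and 0.36, as did the adaptor GGA2 by 0.20 and 0.19. VPS26A of the retromer fell by 0.56 and 0.64, VPS11 of the tethering complexes by 0.67 and 0.36, and CLN6, a protein of the endoplasmic reticulum, by 0.39 and 0.35. Of 27 genes tested that control TFEB and TFE3, 6 were higher and 14 lower with shAHR#2, and 3 higher (1 without pLKO-GFP replicate 2) and 11 lower with shAHR#3. In shares this was 22.2% higher and 51.9% lower with shAHR#2, against 32.6% and 33.2% of all tested genes, and 11.1% and 40.7% with shAHR#3, against 26.9% and 27.5%, and the medians on the log2 scale were -0.19 and -0.08. LAMTOR5, a subunit of the Ragulator complex, measured 61.0, 61.1 and 62.2 CPM with pLKO-GFP, 19.5, 20.3 and 18.4 with shAHR#2 and 41.3, 36.9 and 35.2 with shAHR#3. Its groups were separate, with log2 fold changes of -1.66 (adjusted p = 1.79e-23) and -0.70 (adjusted p = 1.28e-13). MLST8, a subunit of mTOR complexes, fell by 1.49 and 0.60, and the calcineurin subunit PPP3CA by 0.74 and 0.61. The Rag GTPases RRAGA and RRAGD rose by 0.39 and 0.49 with shAHR#2 and by 0.29 and 0.15 with shAHR#3, and LAMTOR2 by 0.22 with both. The shAHR#2 call of LAMTOR2 was lost without pLKO-GFP replicate 2 or 3 or shAHR#2 replicate 1 (adjusted p from 0.0597 to 0.346). With shAHR#3, DESeq2 called neither LAMTOR2 (adjusted p = 0.0591) nor RRAGD (adjusted p = 0.0788). Without a filter on low counts, edgeR did not call RRAGD (adjusted p = 0.0598). Moreover, edgeR called neither gene without pLKO-GFP replicate 2 or 3 or shAHR#3 replicate 2, nor LAMTOR2 without shAHR#3 replicate 3 (adjusted p from 0.0699 to 0.256).

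Among these lists the widest changes were in the protease inhibitors, of which 10 of 17 were tested, where 6 rose and 4 fell with shAHR#2 and 5 rose and 4 fell with shAHR#3. These shares were 60.0% higher and 40.0% lower with shAHR#2, against 32.6% and 33.2% of all tested genes, and 50% and 40.0% with shAHR#3, against 26.9% and 27.5%, and the list had median log2 fold changes of 0.34 and 0.27. CST1, a secreted cystatin that inhibits cysteine cathepsins, measured 10.4, 9.59 and 9.67 CPM with pLKO-GFP, 126, 117 and 117 with shAHR#2 and 60.6, 60.8 and 61.1 with shAHR#3. CST2 measured 1.64, 2.20 and 1.92 CPM with pLKO-GFP, 15.4, 14.1 and 13.3 with shAHR#2 and 11.0, 9.52 and 10.1 with shAHR#3. CST4 measured 6.61, 5.39 and 6.33 CPM with pLKO-GFP, 42.6, 43.2 and 42.0 with shAHR#2 and 22.8, 24.3 and 22.3 with shAHR#3. In all of these the groups were separate and shAHR#2 was highest. The log2 fold changes of CST1 were 3.60 (SE 0.06, adjusted p = 1.53e-35) and 2.62 (SE 0.06, adjusted p = 1.27e-29). Those of CST2 were 2.89 and 2.39, and those of CST4 2.81 and 1.92. CST1, CST2 and CST4 are near-identical neighbours, so how their reads were divided is uncertain.

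The intracellular cystatin CSTB rose as well, by 0.50 and 0.48, and CST3, a general secreted cystatin, had a log2 value of 0.18 (SE 0.03, adjusted p = 3.14e-05) with shAHR#2 and 0.07 (SE 0.03, adjusted p = 0.104) with shAHR#3. CST7, a cystatin that enters lysosomes, moved opposite to CST1 at 4.18, 5.04 and 3.95 CPM with pLKO-GFP, 0.375, 0.257 and 0.316 with shAHR#2 and 0.669, 0.819 and 1.07 with shAHR#3. Its log2 fold changes were -3.75 (SE 0.30, adjusted p = 9.96e-14) and -2.35 (SE 0.23, adjusted p = 7.12e-11). Few counts of CST7 remained with shAHR#2, so the size of that fall is uncertain. SERPINB1 fell by 0.30 and 0.25 and SERPINB6 by 0.16 and 0.18. CST6, an inhibitor of legumain, was named after its values were seen, with 1.41, 1.80 and 2.13 CPM with pLKO-GFP, 0.00, 0.0642 and 0.00 with shAHR#2 and 0.154, 0.409 and 0.195 with shAHR#3. With shAHR#2 it had at most 1 count a library, too few for a fold, and with shAHR#3 its log2 fold change was -2.79 (SE 0.40, adjusted p = 2.07e-07).

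**Figure D4:**
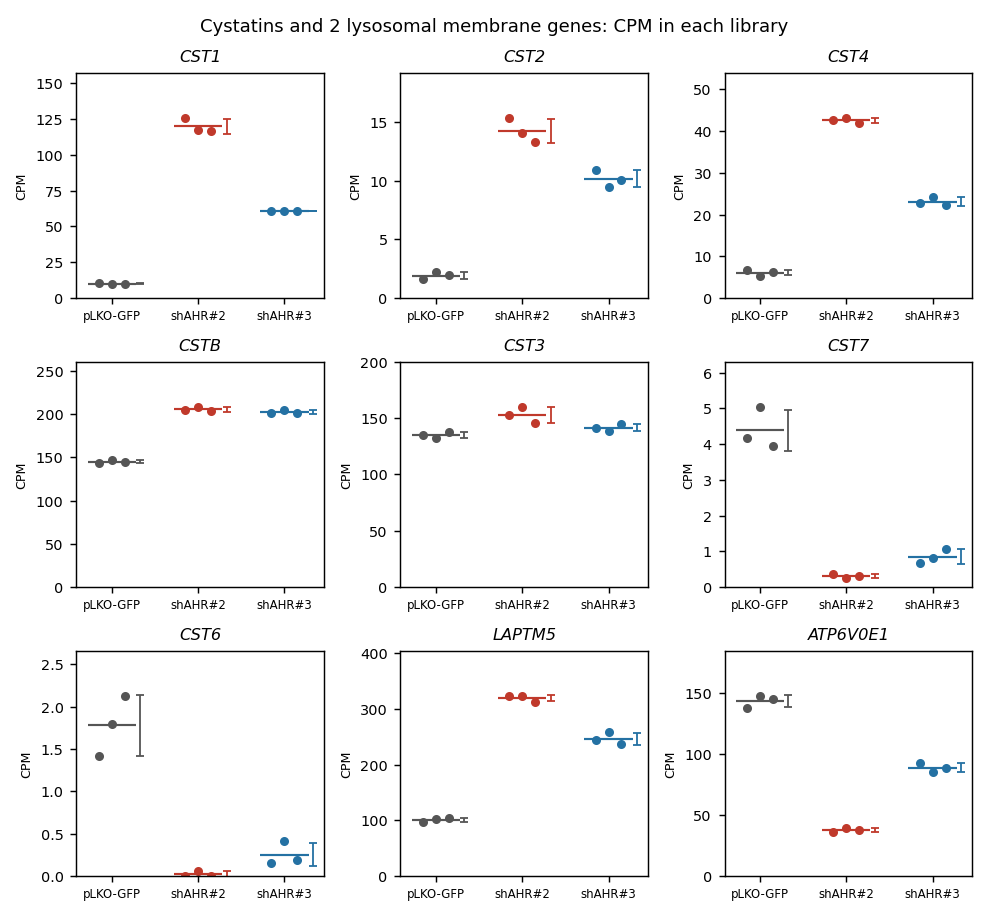
Level in CPM in each library for 7 cystatins and for the membrane genes LAPTM5 and ATP6V0E1, with a line at the mean and bars for the SD of 3 libraries. CST1, CST2 and CST4 are above the control in every hairpin library, while CST7, CST6 and ATP6V0E1 are below it.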

How the data were processed

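Total RNA from 9 libraries of MDA-MB-231 cells (3 each with pLKO-GFP, shAHR#2 and shAHR#3) had been made into stranded mRNA libraries by the authors. The submitters' processing notes name FastQC, STAR, featureCounts of Subread and GRCh38.p13. The authors deposited raw counts, the whole number of reads on each gene, with nothing normalized. The annotation release and the strand setting are not given in the sources used here, so counts of overlapping genes and paralogs are uncertain.

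The counts were scaled by TMM and tested with edgeR 4.0.16 (R 4.3.3): filterByExpr with a minimum count of 10 and total of 15, then glmQLFit and glmQLFTest over all 9 libraries, one mean per group and no block. The paper used DESeq2, an alternative here (1.42.0). Benjamini-Hochberg adjustment ran over 14274 genes. Standard errors derive from the F statistic. Lengths for TPM (all exons of a gene merged) and gene positions came from GENCODE 44 on GRCh38. Counts carry no molecular identifiers.

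The members and lists were chosen with earlier results of these data known. Members were given by name, and the genes named with values in every library were LGMN, CTSD, TFEB, TFE3, members past the threshold with a log2 size of 0.5 against pLKO-GFP with each construct, the 3 largest differences between constructs in each direction and the 5 highest levels per length. Others were added after their values were seen. Alternatives were DESeq2, DESeq2 size factors, no filter, a mean of at least 50 counts, only the groups compared, the replicate block, leaving out each library, an adjusted p under 0.01, another transcript length and raw library totals. Leaving CTSB out of the counts of members and CTSD out of their sum was added after seeing the data. Simulated counts in shAHR#2 against pLKO-GFP, over 14274 genes, were recovered by edgeR for 42 of 66 changes of 0.5 on the log2 scale, 60 of 67 of 1 and 63 of 67 of 2. Of its 173 calls there, 8 were false. Only those genes were changed, whereas 9390 genes were called in the real comparison, so the recovery need not hold for the data.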

Additional observations from a re-analysis of the deposited data

Results flagged for a closer look

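In the direct test of shAHR#3 against shAHR#2, 5 lysosomal genes passed with an absolute log2 difference of 0.5 or more. CTSB was lower with shAHR#3, with a log2 difference of -1.10 (adjusted p = 0.0364), which DESeq2 gave at the same size and did not call (adjusted p = 0.467). Leaving out 1 library moved the CTSB difference between -0.26 (without shAHR#2 replicate 1, adjusted p = 0.718) and -3.04 (without shAHR#3 replicate 3). It also lost the threshold at -1.10 without pLKO-GFP replicate 3, -1.12 without shAHR#2 replicate 2, -0.66 without shAHR#3 replicate 1 and -0.65 without shAHR#3 replicate 2 (adjusted p from 0.0508 to 0.224). CTSS was lower too, with a log2 difference of -0.86 (adjusted p = 6.82e-10), with the 3 shAHR#3 libraries below the 3 shAHR#2 libraries. NEU1 was higher by 1.01 (adjusted p = 6.42e-09) and GM2A by 0.58 (adjusted p = 9.97e-08), again without overlap between the hairpins. TFEB was higher by 0.51 (adjusted p = 0.0361), which DESeq2 did not call (adjusted p = 0.0856) and which lost the threshold without replicate 1 or 3 of either hairpin (adjusted p from 0.0622 to 0.178).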

How the results depend on the processing

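Over 246 fold changes, those of the 45 lysosomal genes and of the other pathway genes named, no called value reversed, and 3555 of 3674 values under the alternatives stayed on their side of the threshold. AHR, FDFT1 and the leukocyte markers were not among them. Leaving out 1 library gave 15 to 18 higher and 15 to 16 lower with shAHR#2, 12 to 16 and 12 to 15 with shAHR#3, and 6 to 10 and 12 to 15 between the hairpins, the 6 without shAHR#2 replicate 1. At the added size of 0.5 these ranges were 5 to 6 and 9 to 11, 1 to 3 (the 1 without shAHR#3 replicate 3) and 7 to 9, and 2 to 3 and 1 to 2 (the 1 without pLKO-GFP replicate 3 or replicate 1 or 2 of either hairpin). DESeq2 and an adjusted p under 0.01 each left 1 member lower with shAHR#3 than shAHR#2 at that size. With the longest transcript as length, summed TPM was 4095 with pLKO-GFP, 4444 with shAHR#2 and 4577 with shAHR#3 instead of 3452, 3717 and 3897. Raw library totals gave summed CPM of 4793 with pLKO-GFP, 4986 with shAHR#2 and 5168 with shAHR#3. Without CTSD, summed CPM was 4048, 4346 and 4222 instead of 4694, 5112 and 5160. Without CTSD and with raw totals it was 4133, 4238 and 4229, and the shAHR#3 libraries overlapped the control. At an adjusted p under 0.01, 3 proteases (instead of 5) and 1 lipid gene (instead of 2) were higher with shAHR#3, 1 lipid gene (instead of 2), 5 other pump subunits (instead of 9) and 3 genes that control TFEB and TFE3 (instead of 6) were higher with shAHR#2, and no transcription factor was lower with shAHR#2. DESeq2 and that threshold each left 1 pump gene higher (instead of 2), 0 lower (instead of 1) and 1 gene that controls TFEB and TFE3 higher (instead of 3) with shAHR#3. Without a filter, 1 lipid gene was higher with shAHR#2 and 0 pump genes lower with shAHR#3, and with a mean of at least 50 counts 2 protease inhibitors (instead of 4) were lower with either hairpin. Libraries with the same replicate number correlated at 0.0031 to 0.0578 in their deviations from the group means and others at -0.068 to 0.0234. The same-number values were small but all positive, so a weak pairing remains possible. The main fit did not pair the libraries. With the replicate block, 18 members were higher and 16 lower with shAHR#2, and no count of members called changed in any comparison. The cause of these changes was not tested. Low counts limit CTSO, CTSV, CTSK, TFEB, CST6 and CST7.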
